A study of Mus musculus with 6 samples.

Results

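The cytosolic ribosomal protein genes were taken as the protein-coding genes whose symbols follow the Rps and Rpl naming of the cytosolic ribosome, together with Rpsa, Rplp0, Rplp1 and Rplp2 and without the Rps6k kinases. Of the 55487 genes in the deposited count table, 83 met this rule: 32 of the small subunit, 48 of the large subunit and the 3 P-stalk genes. The genes lay on 19 chromosomes, with 14 on chromosome 7. Live cells of wild-type C57BL/6J mice were sorted from the small-intestinal epithelium, and their total RNA was sequenced. The B220− group held CD3ε+CD45+ cells lacking B220, a CD45 isoform best known from B cells, and is labelled T cells. The B220+ group held CD3ε+CD45+ cells carrying B220 and is labelled X cells. Each group had 3 libraries, numbered 1 to 3, and both groups share the wild-type genotype, with no library labelled as treated. The labels give no age or sex and do not tie each library to a mouse of its own. A p-value here therefore reflects only how far these libraries scatter, and that scatter may be technical.

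Each cytosolic ribosome joins a small subunit, which decodes the mRNA, to a large subunit, which forms the peptide bond, and most ribosomal proteins are needed in equal amounts. The P-stalk, built from Rplp0, Rplp1 and Rplp2, recruits and activates the translation factors that hydrolyse GTP. The mRNAs of nearly all these proteins carry a 5′ terminal oligopyrimidine tract, a run of pyrimidines beginning with C at the cap, through which mTORC1 and Larp1 control their translation and stability together. Growing and activated lymphocytes raise ribosome production, whereas resting T cells keep it low.

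Because the genes form such a co-regulated family, their annotated starts were examined first. RefSeq promoters on GRCm38.p6 were found for 63 of the 83 genes, with 75 starts in all. A run of at least 5 pyrimidines that begins with C exactly at the annotated start was present at 13 of the 75 starts (17.3%), against 2.51% of the 32851 promoters in the table. Within the first 20 bases after the start such a run lay at 45.3% of the starts, against 24.3% of all promoters. The sequences below run from 15 bases before the annotated start to 20 bases from it, 5′ to 3′ on the gene's strand, with the run at the start in capitals. They show some of the genes that carry the run and, for contrast, 3 that do not carry it at the annotated start.
Rps18, chr17:33955646-33955680, minus strand: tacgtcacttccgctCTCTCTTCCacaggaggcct
Rps21, chr2:180257364-180257398, plus strand: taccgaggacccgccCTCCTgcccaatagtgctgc
Rps6, chr4:86857348-86857382, minus strand: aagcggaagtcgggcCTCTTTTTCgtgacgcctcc
Rplp2, chr7:141447636-141447670, plus strand: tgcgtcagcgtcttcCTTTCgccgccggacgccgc
Rpl15, chr14:18270967-18271001, minus strand: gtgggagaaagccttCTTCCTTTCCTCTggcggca
Rpsa, chr9:120127751-120127785, plus strand: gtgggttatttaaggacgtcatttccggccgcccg
Rps3, chr7:99483690-99483724, minus strand: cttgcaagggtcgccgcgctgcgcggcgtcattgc
Rpl10, chrX:74270801-74270835, plus strand: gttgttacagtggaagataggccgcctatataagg
The run was 9 bases long in Rps18 and in Rps6, 5 in Rps21 and in Rplp2, and 13 in Rpl15. No run at an annotated start says only that these letters are not in this window.

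In the 300-base promoters, read on both strands, GGGCGG occurred in 60.0% of the ribosomal protein promoters and in 35.7% of all promoters. CCGGAAG occurred in 36.0% against 8.86%, and ATGGCGG in 18.7% against 4.05%. CACGTG, which Myc and Max bind, occurred in 10.7% (8 of 75 promoters, from 6 genes) against 7.15%, and TATAAA in 9.33% (7 of 75) against 13.6%. All but TATAAA were thus more frequent in the ribosomal protein promoters than in the whole table, though the values of CACGTG and TATAAA rest on few promoters.

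The ribosomal protein genes were among the most abundant transcripts in both groups. Their counts summed to 4.65%, 4.24% and 4.33% of the library in B220− replicates 1 to 3. The same share was 3.75%, 3.59% and 4.17% in B220+ replicates 1 to 3. The mean share was thus 4.41% ± 0.216 (SD, n = 3) in B220− cells and 3.84% ± 0.298 (SD, n = 3) in B220+ cells, a value 12.9% lower, and the groups did not overlap. B220+ replicate 3 lay closest to the B220− libraries. In this bulk RNA, a smaller share of cells with high ribosomal protein mRNA and less of that mRNA per cell cannot be told apart.

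**Figure D1:**
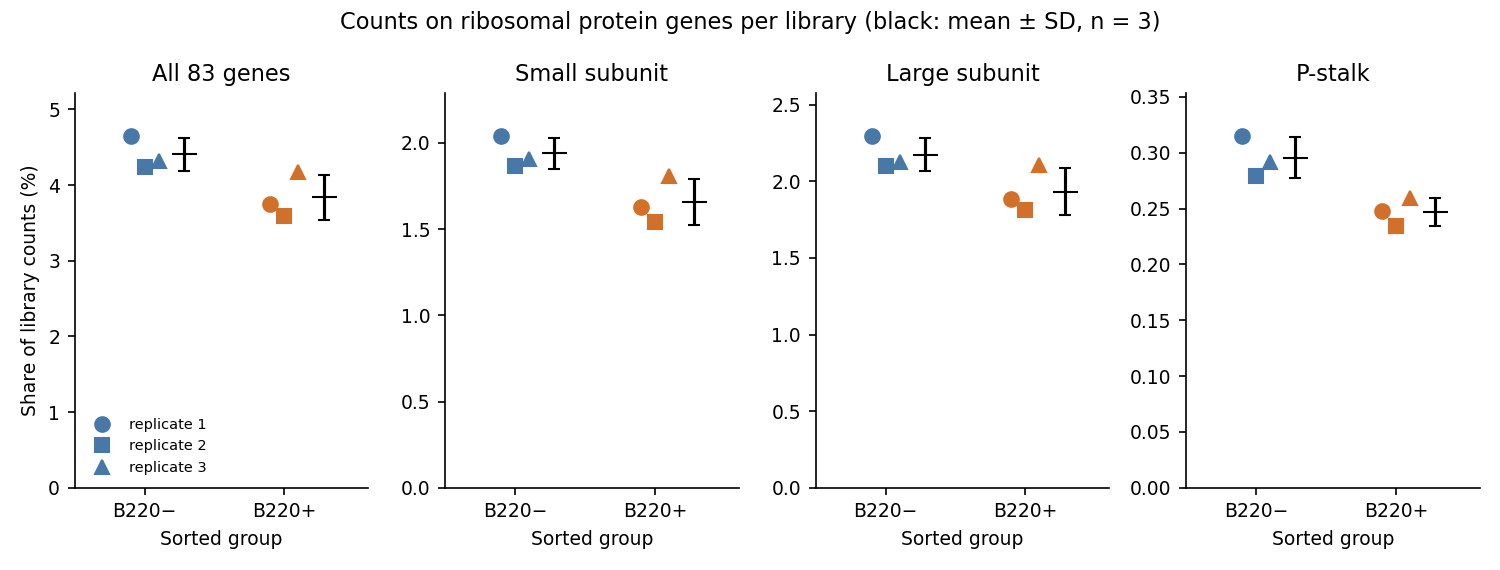
Share of each library's counts (vertical axis, percent) on all 83 ribosomal protein genes, the small subunit, the large subunit and the P-stalk in B220− (blue) and B220+ (orange) libraries; symbols give the replicate number and black bars the mean ± SD (n = 3). The total is 4.41% in B220− and 3.84% in B220+ cells, and B220+ replicate 3, at 4.17%, is the highest B220+ library in each panel.

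The mean share of each class of ribosomal protein gene was lower in the B220+ libraries. The groups did not overlap for the small subunit and the P-stalk, whereas the large-subunit share of B220+ replicate 3 was 2.102%, just above the 2.097% of B220− replicate 2. The small-subunit genes held 1.94% ± 0.0910 of counts in B220− cells and 1.66% ± 0.134 in B220+ cells (SD, n = 3 each), 14.5% lower. The large-subunit genes held 2.17% ± 0.108 and 1.93% ± 0.153 (SD, n = 3 each), 11.1% lower. The P-stalk genes held 0.295% ± 0.0183 and 0.247% ± 0.0125 (SD, n = 3 each), 16.3% lower. The ratio of small-subunit to large-subunit counts was 0.889, 0.890 and 0.897 in the B220− libraries and 0.864, 0.853 and 0.859 in the B220+ libraries. These ratios did not overlap, but the mean log2 level of small-subunit minus large-subunit genes, with each gene weighted equally, ran from 0.32 to 0.39 in B220− and from 0.30 to 0.34 in B220+ libraries and did overlap.

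The 6 libraries held 11320363 to 39591312 counts, B220+ replicate 2 being the deepest, and scaling factors lay between 0.990 and 1.01. The T cell markers Cd3e, Cd3d, Cd3g, Cd247 and Trac summed to 3505 to 3628 CPM (counts scaled to library size) in B220− and 3554 to 3996 CPM in B220+ libraries. Of these 5, Cd247 was called lower, at 262, 217 and 229 CPM against 173, 156 and 168 CPM (fell by 0.51, edgeR adjusted p = 0.00107), and the others were not called. Of the CD8 coreceptor genes, Cd8a rose by 0.36 (adjusted p = 0.00779), at 2147, 2227 and 2177 CPM against 2951, 2689 and 2791 CPM. Cd8b1 fell by 3.16 (adjusted p = 0.00447), at 164 to 288 CPM against 19.4 to 29.1 CPM. The B cell markers Ms4a1, Pax5, Ebf1, Fcer2a and Cr2 lay at or near 0, while Cd79b ran from 22.9 to 31.6 CPM in B220− and from 29.6 to 33.0 CPM in B220+ libraries. Some marker lists moved with the groups as the ribosomal protein genes did or opposite to them. All 7 naive T cell genes were fitted below 0, and 6 of them were called lower. Their sum was 490 to 587 CPM in B220− and 223 to 350 CPM in B220+ libraries, and Cd4 ran from 125 to 215 CPM against 6.67 to 8.23 CPM. The macrophage and dendritic cell list ran from 254 to 327 CPM against 384 to 536 CPM, most of it Itgax (log2 fold change 0.63, edgeR adjusted p = 0.0554). The other 4 of its 5 tested genes were fitted below 0, and Lyz2 fell by 2.60 (adjusted p = 0.00200). Of 3 tested plasma cell genes 1 was called lower, Sdc1, which fell by 2.12 (adjusted p = 0.0203), and the list ran from 132 to 238 CPM against 138 to 174 CPM. The mast cell list ran from 47.4 to 102 CPM against 201 to 316 CPM, most of it Kit. Of its 2 tested genes 1 was fitted above 0 and 1 below 0. The main edgeR fit called 0 of them, while DESeq2 and the fit with replicate number as a block each called 1 higher. Adgre1 did not exceed 0.377 CPM, and S100a8 and S100a9 were at 0 in all libraries. The stromal list summed to 30.7 to 32.1 CPM against 34.3 to 40.2 CPM, most of it Pecam1, and the epithelial list to 293 to 359 CPM against 322 to 366 CPM. Of the 9 tested epithelial genes, however, 7 were fitted below 0 and 2 above 0. The main edgeR fit called 0 of these 9, DESeq2 called 1 higher and the block called 1 lower. The part of these differences in the ribosomal protein values was not tested.

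For single genes the question was whether the difference exceeded the spread between libraries. Of the 83 genes 80 passed the filter on low counts and were tested with the edgeR quasi-likelihood test, and a gene was called at a Benjamini-Hochberg adjusted p under 0.05 over the 14722 genes tested. In B220+ cells 13 of the 80 were called lower, where 5.56% of all genes tested were called lower. In the other direction 0 of the 80 were called higher, where 5.58% of all genes tested were called higher. At an unadjusted p under 0.05 the edgeR test gave 47 of the 80 lower and 0 higher. Over all 14722 genes tested that threshold gave 1604 lower and 1701 higher. DESeq2 gave 29 of the 80 lower (5.84% of all genes tested) and 0 higher after adjustment. Without the filter on low counts edgeR gave 30 lower (4.23% of the genes tested in that fit). The called genes were 8 of the small subunit, 4 of the large subunit and 1 of the P-stalk, and they were 15.4% to 23.4% lower in B220+ cells.

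The fitted differences of the 80 genes were small and mostly of the same sign. The fitted log2 fold change, B220+ minus B220−, lay below 0 for 73 of the 80 genes (91.25%), against 51.5% of all genes tested. Its median was −0.20 (13.1% lower), with quartiles of −0.26 and −0.13 and a range from −0.38 to 0.12. The median over all genes tested was −0.01. In 42 of the 80 genes all 3 B220+ libraries lay below all 3 B220− libraries, as in 13.9% of all genes tested. In 1 gene, Rpl10, all 3 lay above, as in 14.1% of all genes tested, and in 37 the groups overlapped.

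**Figure D2:**
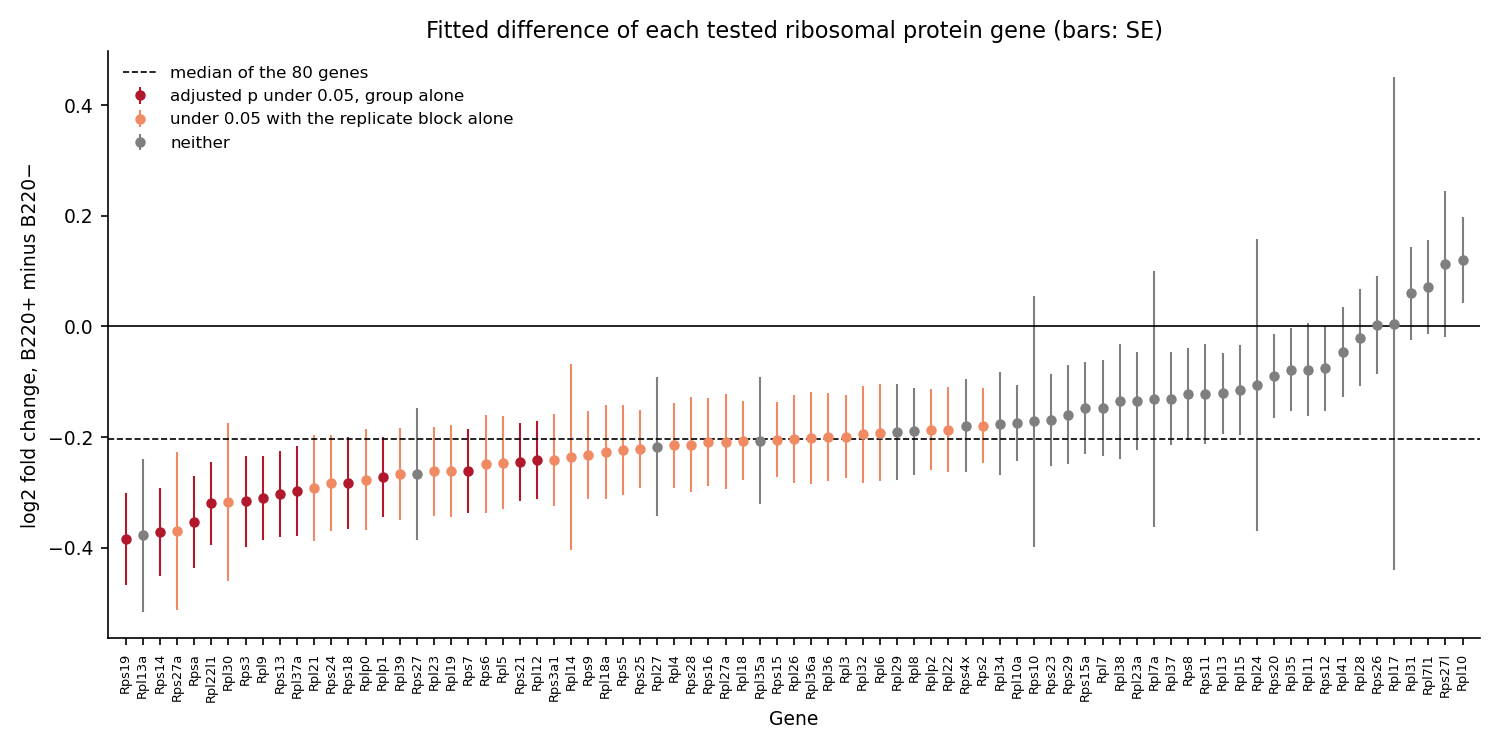
Fitted log2 fold change (vertical axis, B220+ minus B220−, bars: SE) of the tested ribosomal protein genes in rank order, with 1 of the 80 not drawn; red marks the 13 genes with an adjusted p under 0.05 in the fit on group alone and orange the further genes that passed under the replicate block only. The dashed line is the median of the 80 at −0.20, and most genes lie below 0.

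Libraries with the same replicate number deviated together across all genes, so the numbers were treated as pairs in an alternative fit. No label states a pair, and the pairing was read from the same counts that were tested. When replicate number entered the edgeR fit as a block, it called 44 of the 80 genes lower (8.6% of all genes tested) and 0 higher (8.85% of all genes tested), and the 44 included all 13 called without it. Within the pairs, the median log2 difference of the 80 genes was −0.29 in pair 1, −0.25 in pair 2 and −0.05 in pair 3. The number of genes lower in the B220+ library was 77 of 80 in pair 1, 77 in pair 2 and 54 in pair 3. In 53 genes the B220+ library was lower in all 3 pairs, as in 24.4% of all genes tested. The medians over all genes tested were within 0.01 of 0 in each pair.

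**Figure D3:**
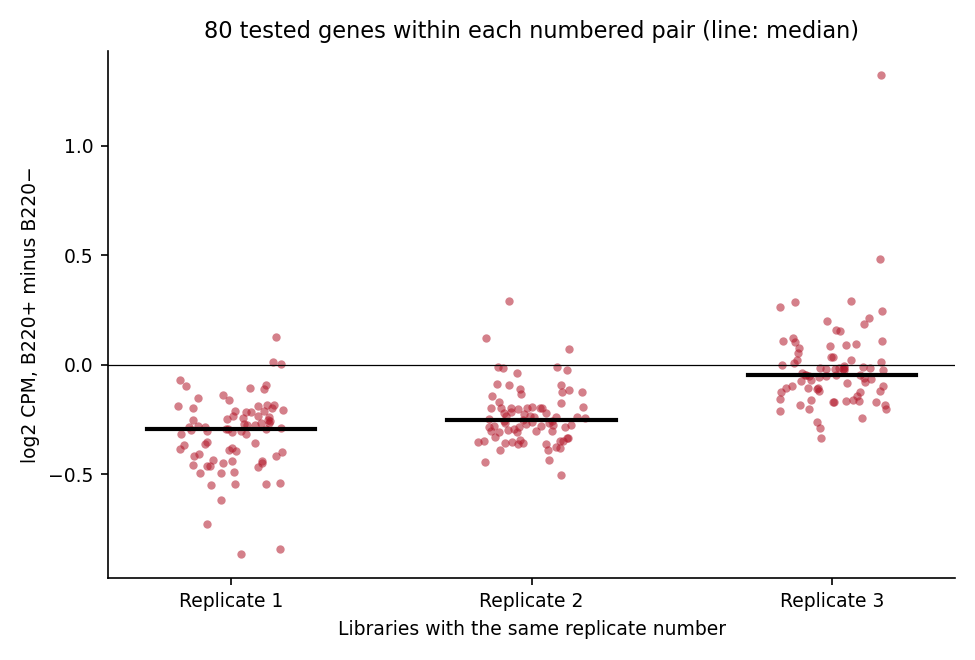
log2 CPM of the B220+ library minus that of the B220− library with the same replicate number (vertical axis) for the 80 tested genes, with the median as a line. The medians are −0.29, −0.25 and −0.05 in pairs 1, 2 and 3, so the third pair sits closest to 0.

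The number of calls depended on single libraries, and the direction did not. Leaving out B220− replicate 1 gave 6 ribosomal protein genes called lower (4.64% of all genes tested in that fit), B220− replicate 2 gave 14 (5.54%), and B220− replicate 3 gave 4 (3.85%). Leaving out B220+ replicate 1 gave 3 (4.33%), a share of the tested ribosomal protein genes below that of all genes. Leaving out B220+ replicate 2, the deepest library, gave 0 (3.66%), and leaving out B220+ replicate 3 gave 20 (4.26%). The median log2 fold change stayed between −0.27 and −0.15 in these 6 fits. Of the 13 genes called with all libraries, Rps14 was called in 5 of the 6 fits, Rps19, Rpsa and Rpl22l1 in 4, and Rps3, Rpl9 and Rps13 in 3. Rpl37a was called in 2, Rps18, Rplp1, Rps7 and Rpl12 in 1, and Rps21 in 0.

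Among small-subunit genes, Rps19 and Rps14 had the lowest adjusted p-values. Rps19, mutated in Diamond-Blackfan anaemia, is needed to mature 18S rRNA. Rps19 (ENSMUSG00000040952, chr7:24884371-24889806) stood at 380, 353 and 393 CPM in B220− and 280, 261 and 322 CPM in B220+ libraries. It fell by 0.38 on the log2 scale (SE 0.0831, adjusted p = 0.00918 with edgeR), and the lowest B220− library was above the highest B220+ library. Rps14, whose human counterpart is lost in the 5q deletion syndrome, stood at 842, 845 and 795 CPM in B220− and 613, 597 and 710 CPM in B220+ libraries. Rps14 fell by 0.37 (SE 0.0797, adjusted p = 0.00879 with edgeR) without overlap. With libraries left out in turn, Rps14 lost its call, with an adjusted p of 0.0534, without B220+ replicate 2. Rps19 lost its call with 0.0598 without B220− replicate 3 and 0.0555 without B220+ replicate 2.

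Rpsa, the small-subunit protein also known as the laminin receptor, is located on chr9:120127689-120132369 and was the most abundant of the called genes by counts. Its levels were 1579, 1379 and 1337 CPM in B220− and 1079, 1092 and 1189 CPM in B220+ libraries. Rpsa fell by 0.35 (SE 0.0836, adjusted p = 0.0151 with edgeR), with no overlap. Rps3, which lines the mRNA entry channel, stood at 1119, 982 and 953 CPM in B220− and at 796, 781 and 877 CPM in B220+ libraries. Rps3 was 19.7% lower, with an edgeR adjusted p of 0.0259. Rps13 ran from 523 to 567 CPM in B220− and from 409 to 488 CPM in B220+ libraries, 19.0% lower.

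The other small-subunit genes called lower were Rps18, Rps7 and Rps21, and their libraries did not overlap either. Rps18 of the subunit head was 17.8% lower (edgeR adjusted p = 0.0464). Rps7, which can also bind Mdm2, was 16.5% lower (adjusted p = 0.0437), and Rps21 was 15.7% lower (adjusted p = 0.0420). In Rps21 the B220− libraries lay close together at 385, 377 and 378 CPM, against 333, 293 and 336 CPM in B220+ libraries. Rps18 overlaps Vps52 on the opposite strand, and the sources used here do not state whether the counting used strand, so its value is uncertain to that extent. The rows named as pseudogenes of Rps7 held 26.9% as many counts as Rps7 itself, so its reads may be split, and with these rows added it was not called.

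**Figure D4:**
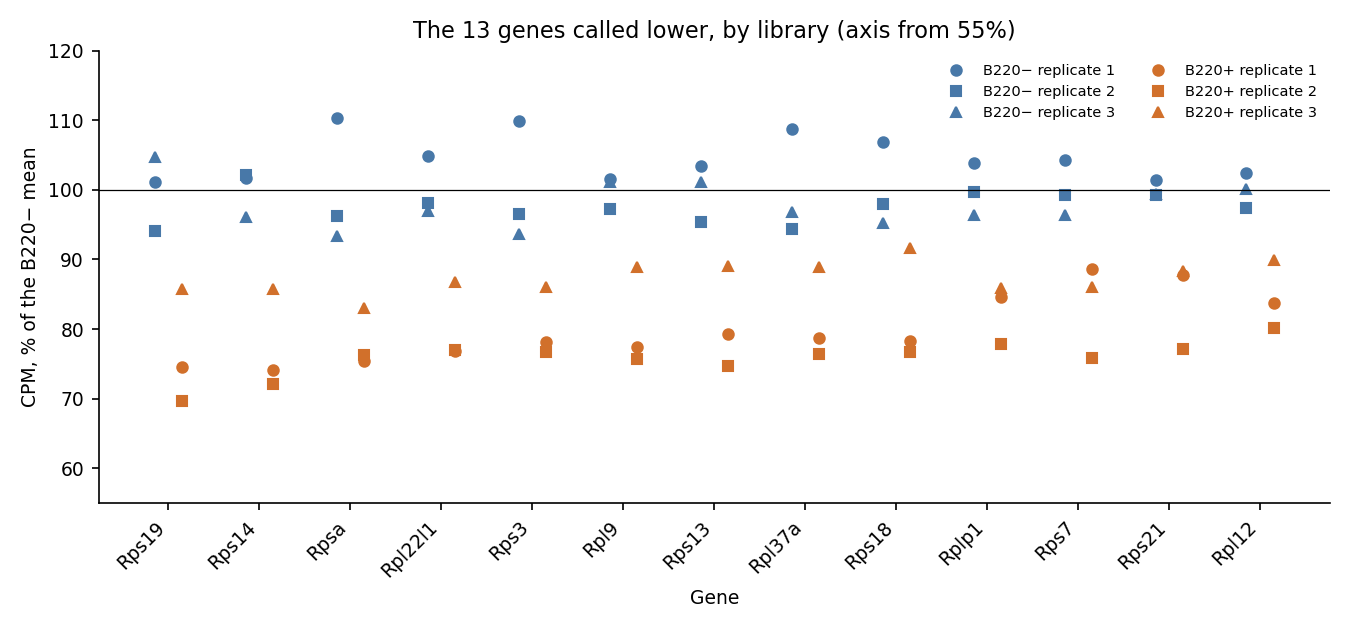
Level in each library, as percent of the B220− mean CPM of the gene (vertical axis, not starting at 0), for the 13 genes called lower, in rank order of the fitted change; blue, B220−; orange, B220+; symbols give the replicate number. In each gene the 3 B220+ libraries lie below the 3 B220− libraries, and B220+ replicate 2 is the lowest of the 6 in most of them.

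Rps6, the small-subunit protein phosphorylated by the S6 kinases downstream of mTORC1, was not called without the block. Its levels were 891, 739 and 767 CPM in B220− and 647, 632 and 739 CPM in B220+ libraries, so that B220− replicate 2 and B220+ replicate 3 were level. The fitted log2 fold change of Rps6 was −0.25 (SE 0.0890, adjusted p = 0.103 with edgeR), with an adjusted p of 0.0219 under the replicate block. Rps27a, which is made as a fusion to ubiquitin, stood at 504, 364 and 406 CPM in B220− and 347, 278 and 363 CPM in B220+ libraries. Its log2 fold change of −0.37 (SE 0.143) had an edgeR adjusted p of 0.171, and 0.00082 with the block. In Rps27a the lowest B220− and the highest B220+ library differed by under 2 CPM. Rows named as its pseudogenes held 16.8% as many counts as Rps27a, so its reads may be split. With these rows added, values ran from 446 to 538 CPM in B220− and from 347 to 423 CPM in B220+ libraries. The within-group SD of log2 counts was 0.22 before and 0.15 after.

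Among large-subunit genes, Rpl22l1, Rpl9, Rpl37a and Rpl12 were called lower. Rpl22l1 is the paralogue of Rpl22, and loss of Rpl22 in mice is known to block the development of αβ T cells while sparing γδ T cells. Rpl22l1 (chr3:28805436-28807424) stood at 103, 96.5 and 95.3 CPM in B220− and 75.5, 75.7 and 85.3 CPM in B220+ libraries. Rpl22l1 fell by 0.32 (SE 0.0747, adjusted p = 0.0142 with edgeR) without overlap. Gm33051 lies on its opposite strand with 3230 counts to 9811 of Rpl22l1, so this value is uncertain where strand was not used. Rpl22 itself had a log2 fold change of −0.19 (SE 0.0765, adjusted p = 0.161 with edgeR and 0.0472 with the block).

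Rpl9 was 19.3% lower, at 599, 573 and 595 CPM in B220− and 456, 446 and 524 CPM in B220+ libraries (edgeR adjusted p = 0.0185). The B220+ value of Rpl9 nearest to the B220− range was that of replicate 3, and rows named as its pseudogenes held 12.8% as many counts. Rpl37a, a zinc-binding protein of the large subunit, was 18.7% lower (adjusted p = 0.0327). Rpl12, which sits at the base of the P-stalk, was 15.4% lower (adjusted p = 0.0455), with 850, 809 and 832 CPM in B220− and 695, 666 and 746 CPM in B220+ libraries.

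All 3 P-stalk genes lay lower in each B220+ library than in each B220− library, and Rplp1 was called. Rplp1 stood at 1042, 1001 and 968 CPM in B220− and 850, 782 and 862 CPM in B220+ libraries, and fell by 0.27 (SE 0.0723, adjusted p = 0.0281 with edgeR). Rplp0, the scaffold that holds the other stalk proteins, stood at 1647, 1328 and 1379 CPM against 1196, 1130 and 1268 CPM. Its log2 fold change of −0.28 had an edgeR adjusted p of 0.0746, and 0.00943 with the block. Rplp2 had a log2 fold change of −0.19 (adjusted p = 0.141; 0.0288 with the block), at 498, 479 and 544 CPM against 437, 427 and 473 CPM.

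A few ribosomal protein genes did not share the lower level. Rpl10, a late-joining large-subunit protein encoded on the X chromosome, stood at 682 CPM in each B220− library and at 688, 717 and 818 CPM in the B220+ libraries. All 3 B220+ libraries were above the B220− ones, but the log2 fold change of 0.12 (SE 0.0771) had an edgeR adjusted p of 0.413. Other genes fitted above 0 were Rps27l at 0.11, Rpl7l1 at 0.07 and Rpl31 at 0.06, with Rpl17 and Rps26 at 0.01 or below. None of these genes was called with edgeR, with or without the block, or with DESeq2, and in Rps27l, Rpl7l1, Rpl31, Rpl17 and Rps26 the groups overlapped.

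Levels between genes were compared as TPM, in which counts are divided by the exonic length of the gene and scaled to the same total in each library. That length is the union of all annotated exons, from 383 bases in Rpl36 to 6270 bases in Rps15a, and can exceed the length of the mRNA. The order of genes by TPM therefore depends on the annotation as well as on the counts. The mean TPM of the 80 tested genes ran from 7.15 to 5396, with a median of 677. Rplp1 was the highest, at 5885 TPM in B220− and 4906 TPM in B220+ cells. It was followed by Rps3a1, Rps15, Rplp0 and Rpl36, with group means from 2127 to 3476 TPM. Of these, Rplp1 alone was called without the block, while Rps3a1 (adjusted p = 0.0899; 0.0158 with the block), Rps15 (0.0782; 0.0225) and Rpl36 (0.148; 0.0345) passed with it. As a share of all TPM the 83 genes held 7.98% ± 0.305 in B220− and 7.01% ± 0.50 in B220+ cells (SD, n = 3 each).

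The lowest tested genes were Rpl24, Rps10, Rpl13a, Rpl7l1 and Rps27l. Rpl24, which bridges the 2 subunits, stood at 2.15 to 3.07 CPM in B220− and 2.04 to 2.74 CPM in B220+ libraries. Rps10 stood at 4.79, 6.18 and 7.78 CPM in B220− and 4.07, 5.77 and 6.51 CPM in B220+ libraries. The row Rps10-ps2, named as a pseudogene of Rps10, held 141, 136 and 126 CPM in B220− and 108, 111 and 111 CPM in B220+ libraries. Counts listed for Rps10 were thus a small part of those listed for its pseudogene row, and reads of Rps10 and Rps10-ps2 may be assigned to either. Rpl13a stood at 42.2, 31.0 and 31.3 CPM against 23.3, 26.5 and 30.8 CPM. Its log2 fold change of −0.38 was among the 5 largest, but its edgeR adjusted p was 0.122. Rows named as pseudogenes held 0 counts for Rpl24 and 1.25% as many counts as the gene for Rpl13a. Reads assigned to rows under other names were not searched for. Whether the low counts of Rpl24 and Rpl13a reflect low mRNA was therefore not tested.

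Rpl17, Rps10 and Rpl7a varied most between libraries of a group. Rpl17 stood at 401, 335 and 165 CPM in B220− and at 220, 271 and 415 CPM in B220+ libraries. The row Rpl17-ps10 was highest, at 289 CPM, in B220− replicate 3, where Rpl17 was lowest. When the pseudogene rows were added, the within-group SD of log2 counts dropped from 0.58 to 0.21 for Rpl17 and from 0.32 to 0.04 for Rps10. For Rpl7a, at 188 to 323 CPM in B220− and 195 to 262 CPM in B220+ libraries, it was 0.31 before and 0.27 after. Over all genes, 317 rows were named as pseudogenes of ribosomal protein genes, 191 of them with counts, and in 12 genes these rows held at least 10% as many counts as the gene. With pseudogene counts added, 13 genes were called lower (5.61% of all genes tested in that fit), of which 12 had been called without them. Rps7 lost its call (log2 fold change −0.25, edgeR adjusted p = 0.0541), and Rps10 was called (−0.28, adjusted p = 0.0139). Without the 12 genes and any gene under 1000 counts, 11 of 67 were called lower.

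Expression of the tissue-restricted paralogues was low or absent. Rpl10l, known from testis, had 0 counts in all 6 libraries, which allows up to 3 counts per library. Rpl3l, known from heart and skeletal muscle, had 1 count in all, and Rpl39l did not pass the filter, at 0.2 to 0.7 CPM. Per exonic length (union of annotated exons), Rpl22l1 stood at 57.0% ± 0.562 of Rpl22 in B220− and 52.1% ± 2.74 in B220+ cells (SD, n = 3 each). Rps27l, a p53 target, stood at 3.52% ± 0.443 of Rps27 in B220− and 4.61% ± 0.216 in B220+ cells. Rpl7l1 stood at 4.44% ± 0.255 of Rpl7 and at 5.20% ± 0.348. In each of these 3 pairs the ratios of the libraries did not overlap between the groups, while the level of Rps27l and Rpl7l1 themselves did. Rpl3, Rpl7, Rpl39, Rps4x and Rps27, the main copies, had log2 fold changes from −0.27 to −0.15. Of these, Rpl3 (edgeR adjusted p = 0.121; 0.0370 with the block) and Rpl39 (0.0593; 0.00231) passed the test with the block.

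The 13 genes with a pyrimidine run at an annotated start were all fitted below 0, from −0.28 to −0.02 on the log2 scale with the median at −0.19. Rps18 and Rps21 were the 2 of the 13 called lower. The 47 tested genes with a RefSeq start but no run there had a median of −0.21, 9 of them being called lower. The medians of both sets lay within 0.03 of each other. Inside the gene bodies, 30 ribosomal protein genes held 58 annotated snoRNA genes, of which 29 had counts. Of 16 snoRNA genes tested, edgeR called 0, with 0 at an unadjusted p under 0.05, and DESeq2 called 0. The median SE of their log2 fold changes was 0.31, against 0.08 for the ribosomal protein genes.

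Ribosomal protein mRNAs are short and abundant, and other short or abundant genes were set beside them. The tested ribosomal protein genes had a median exonic length (union of annotated exons) of 1805.5 bases, against 4486 for 11427 other tested protein-coding genes. Among 256 other tested protein-coding genes under 1000 exonic bases the median was 3.28% lower in B220+ cells, with 8 called higher and 11 lower. This limit lies below the median exonic length of the ribosomal protein genes, so these genes are not matched to them in exonic length. Of the 500 genes with the highest mean CPM, the 443 that are not ribosomal protein genes had a median 1.51% lower, with 50 called higher and 22 lower. Of all genes tested, 5.58% were called higher and 5.56% lower. The ribosomal protein genes had a median 13.1% lower.

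Other genes of the ribosome and of translation were followed in lists. The cytosolic ribosomal proteins whose symbols fall outside the rule gave 2 of 6 lower and 0 higher, against 5.56% and 5.58% of all genes tested. Fau, a fusion of a ubiquitin-like protein with Rps30, stood at 632, 620 and 597 CPM in B220− and 521, 484 and 534 CPM in B220+ libraries, and fell by 0.27 (edgeR adjusted p = 0.0249). Rps27rt, a copy of Rps27, fell by 0.96 (adjusted p = 0.0434), but had an adjusted p of 0.107 with the block and was called in a single leave-one-out fit, that without B220− replicate 2 (adjusted p from 4.27e-06 to 0.189 over the 6). Rack1, the scaffold on the small subunit, had a log2 fold change of −0.27 (adjusted p = 0.0516; 0.00992 with the block).

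Of 36 translation factors the edgeR test called 0 lower and 1 higher, against 5.56% and 5.58% of all genes tested. At an unadjusted p under 0.05, 5 of the 36 were lower, as were 1604 of all 14722 genes tested. DESeq2 called 3 of the 36 lower, Tpt1, Naca and Eif3m, and 1 higher. Of the 36, 31 were fitted below 0, with a median 7.23% lower. The gene called higher was Eef2k, the kinase that inhibits elongation factor 2, at 32.1, 52.1 and 42.8 CPM in B220− and 87.0, 90.5 and 79.7 CPM in B220+ libraries (log2 fold change 1.02, SE 0.164, edgeR adjusted p = 0.00718). With the block 4 of the 36 were called lower, against 8.6% of all genes tested. These were Eif3m, Naca, Tpt1 and Npm1, with log2 fold changes from −0.26 to −0.20. Eef1a1, the most abundant elongation factor, had a log2 fold change of −0.16 (adjusted p = 0.343).

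Of 49 ribosome biogenesis genes 2 were called lower and 0 higher, a share below the 5.56% of all genes tested that were called lower, and the median was 1.85% lower. Emg1, which methylates 18S rRNA, fell by 0.32 (SE 0.0832, adjusted p = 0.0249 with edgeR), and Bysl, which processes small-subunit precursors, fell by 0.26 (SE 0.0720, adjusted p = 0.0336). With the block 4 of the 49 were called lower and 1 higher, against 8.6% and 8.85% of all genes tested. Of 77 tested mitochondrial ribosomal protein genes 1 was called lower and 0 higher, again below the 5.56% of all genes, with a median 2.03% lower. That gene was Mrps5, at 40.6, 42.4 and 43.1 CPM in B220− and 31.4, 33.8 and 34.9 CPM in B220+ libraries (edgeR adjusted p = 0.0166). Leaving out B220− replicate 3 or B220+ replicate 2 ended the calls of Fau, Rps27rt, Emg1, Bysl and Mrps5. Leaving out B220− replicate 1, B220+ replicate 1 or B220+ replicate 3 gave 1, 1 and 2 genes called lower in these lists.

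Of 40 tested genes of mTORC1 and Myc control 0 were called lower and 1 higher, against 5.56% and 5.58% of all genes tested. The share called higher was thus below that of all genes. Max, the partner through which Myc binds DNA, stood at 140, 182 and 157 CPM in B220− and 232, 258 and 257 CPM in B220+ libraries, and rose by 0.64 on the log2 scale (SE 0.0927, adjusted p = 0.000763 with edgeR). Myc itself (log2 fold change 0.15, adjusted p = 0.818), Mtor (0.00, adjusted p = 0.986) and Larp1 (−0.06, adjusted p = 0.699) were not called. With the block 3 of the 40 were called higher and 1 lower, against 8.85% and 8.6% of all genes tested. Of 11 genes that link ribosome assembly to p53, 1 was called lower and 0 higher, against 5.56% and 5.58% of all genes tested. That gene, Cdkn1a, the cell cycle inhibitor p21, fell by 0.72 (SE 0.162, adjusted p = 0.0197 with edgeR). Its call ended without B220− replicate 2 (edgeR adjusted p = 0.0566) and without B220− replicate 3 (0.0878). The median shift was thus 13.1% lower for the cytosolic ribosomal proteins, and 7.23%, 2.03% and 1.85% lower for translation factors, mitochondrial ribosomal proteins and ribosome biogenesis genes.

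**Figure D5:**
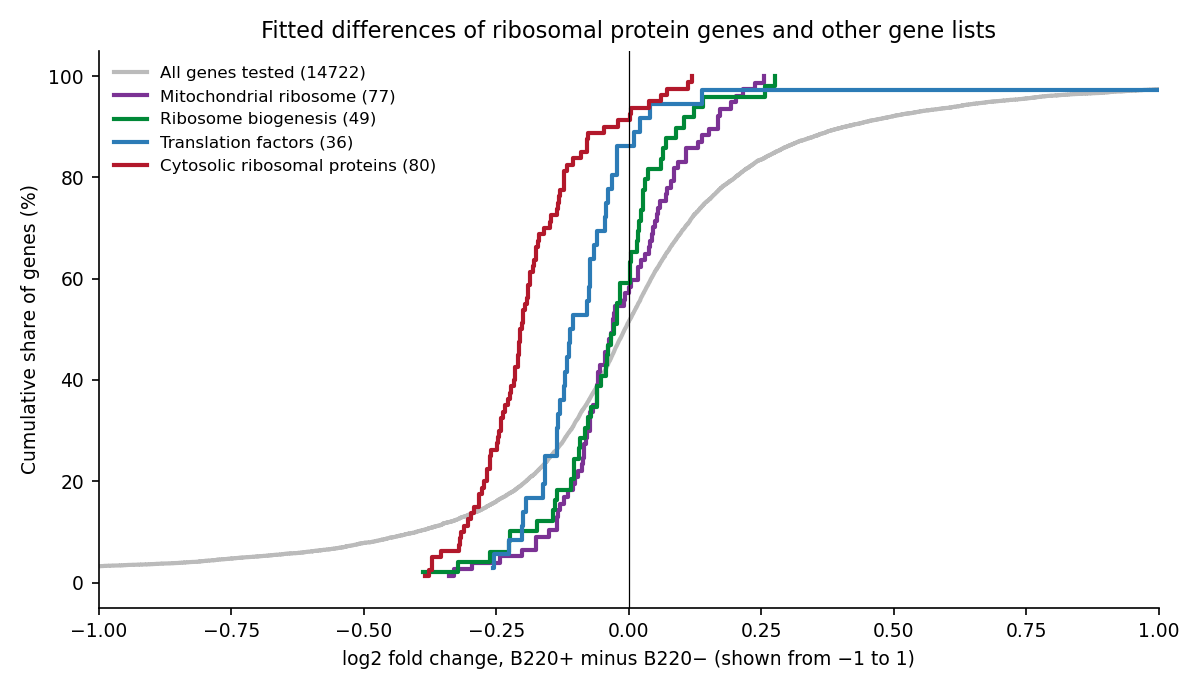
Cumulative share of genes (vertical axis, percent) by fitted log2 fold change (horizontal axis, B220+ minus B220−, shown from −1 to 1) for all 14722 genes tested, 77 mitochondrial ribosomal protein genes, 49 ribosome biogenesis genes, 36 translation factors and 80 cytosolic ribosomal protein genes. The ribosomal protein curve lies farthest left at its median, −0.20, while its range is narrower than that of all genes.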

How the data were processed

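Total RNA libraries of 6 sorted samples were prepared with a directional kit, per the labels. The authors deposited raw counts of reads for each gene as whole numbers, without normalization. The submitters' processing notes name FastQC 0.11.7, Trimmomatic 0.38, HISAT2 2.1.0, SAMtools 1.9, featureCounts 1.6.3 and the mm10 build; whether strand was used and how reads with several matches were handled is not given in the sources used here. All 83 genes have the coordinates of GENCODE M21, from which exonic lengths (the union of exons) and TPM were taken. Counts were tested with edgeR 4.0.16 in R 4.3.3 (trimmed-mean scaling, filterByExpr with minimum count 10 and total 15, robust quasi-likelihood F test, group alone, Benjamini-Hochberg over 14722 genes, called under 0.05). DESeq2 1.42.0, other scalings, no filter, the replicate block, single libraries left out and added pseudogene counts were alternatives. No library repeated another of its group: chi-square divided by its degrees of freedom was 7.27 to 16.4.

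The replicate numbers come from the sample titles. Across all genes, deviations from the group mean correlated at 0.295, 0.246 and 0.272 between libraries of the same number and at −0.203 to −0.0675 otherwise. The numbers were therefore taken to pair the libraries in the replicate block and the pair differences, although no label states a pair. The main and leave-one-out fits used group alone.

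The text names every ribosomal protein gene called, the paralogue pairs, the P-stalk genes, Rpsa, Rps6, Rps27a, the 5 highest and 5 lowest per length, the 5 largest changes, the 3 most variable, and the called genes of each list. Rpl31, Rps26, Rack1, Eef1a1, Eif3m, Naca, Tpt1, Npm1, Myc, Mtor and Larp1 were chosen after their values were seen. The values of 1 ribosomal protein gene and 1 marker are not reported here by name. The genes and lists were chosen with earlier results of these data known.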

Additional observations from a re-analysis of the deposited data

How the results depend on the processing

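The median log2 fold change of the ribosomal protein genes was negative under every alternative run, from −0.27 to −0.15, and the ratio of summed shares ran from 0.833 to 0.899 with single libraries left out (0.871 with all). The count called lower (13) was less steady. It was 30 without the filter on low counts (4.23% of genes tested so), 29 with DESeq2 and 44 with the replicate block, and from 0 to 20 with single libraries left out. Scaling alternatives gave 13 or 14, added pseudogene counts 13, and 19 were called without B220+ replicate 3 and B220− replicate 1 together, an alternative chosen after seeing the data, as was leaving out genes with many pseudogene counts (11). No alternative called a ribosomal protein gene higher. In the 5 lists of other ribosome, translation and growth-control genes, 208 were tested, 5 called lower and 2 higher. Those called lower were 9 without the filter, 8 with DESeq2 and 12 with the block (4.23%, 5.84% and 8.6% of all genes tested so). They were 3 without the 2 libraries and from 0 to 5 with single libraries left out. Those called higher were 5 without the filter and 5 with the block (8.85% of all genes tested with the block). The difference in the log2 ratio of small-subunit to large-subunit levels, B220+ minus B220−, was −0.0552 on counts and −0.0322 with equal weight per gene. Of the named calls, the block ended that of Rps27rt alone. The causes were not tested. The depth of B220− replicate 3 and B220+ replicate 1 limits the genes under 10 CPM, Rpl24 and Rps10.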

Other observations

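Rpl14, a large-subunit gene chosen here after its values were seen, differed between the fits with and without the replicate block. It stood at 361, 402 and 500 CPM in B220− replicates 1 to 3 and at 312, 326 and 434 CPM in B220+ replicates 1 to 3. The groups overlapped, with an edgeR adjusted p of 0.499 for the group alone. Within the numbered pairs the log2 differences were −0.21, −0.30 and −0.20, and the adjusted p with the replicate block was 0.00609. Rpl14-ps1 held 36.3% as many counts as Rpl14.

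In the third pair, where the median difference of the ribosomal protein genes was closest to 0, Rps27l was higher by 0.48 and Rpl31 by 0.29 in the B220+ library on the log2 scale. Rpl17 was higher by 1.32 there, with the split of its counts between the gene and Rpl17-ps10 described above.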
